A study of Mus musculus with 35 samples.

Results

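Clock output genes of the PAR bZIP and Rev-erb families were followed in the mouse hippocampus after pilocarpine-induced status epilepticus (SE). The 9 genes Dbp, Tef, Hlf, Nfil3, Nr1d1, Nr1d2, Ciart, Bhlhe40 and Bhlhe41 were taken by symbol from a table of mRNA read counts for 43629 Ensembl genes. All 9 were found, and all 9 passed the filter on low counts in every comparison. The table held 19 libraries of polyA RNA from the left hippocampus of C57BL/6j mice of both sexes, aged 6 to 7 weeks. SE mice were given scopolamine, which limits peripheral cholinergic effects, then pilocarpine, a muscarinic agonist, first at 350 mg/kg and then in smaller steps until sustained seizures. Control mice were given scopolamine and saline. The libraries were 3 SE and 2 control at 1 h, 2 SE and 3 control at 8 h, 3 SE at 36 h and 3 SE at 120 h. The last 2 times shared 3 control libraries. One label gives these controls a time of 36 h, another the span of 36 to 120 h, and their titles read t0. The labels thus do not settle when these controls were collected. Because they are shared, the comparisons at 36 h and 120 h are not independent.

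Total counts ran from 8503816 to 28465548 per library. The labels name a batch for each library: at 1 h, batch G511 held SE replicate 3 and control replicate 1 and batch G369 the others, and at 8 h control replicate 1 alone came from G511 and the other 4 from G317. All libraries of 36 h and 120 h came from G545. Summed levels of 15 choroid plexus markers ran from 65.0 to 7312 CPM over SE libraries and from 66.9 to 4084 CPM over controls, and 1 marker was at 0 in a library of SE at 36 h. At 36 h, 7312 and 5933 CPM were found in SE replicates 1 and 2 and 65.0 CPM in SE replicate 3, and at 120 h, 6677 CPM in SE replicate 3 and 68.5 and 83.3 CPM in the others. Markers of hippocampal neurons were found in every library, at summed levels of 918 to 1752 CPM after SE and 999 to 1974 CPM in controls (8 genes). By counts of Xist above those of Ddx3y, 0 of 3 SE libraries at 36 h, 1 of 3 at 120 h and 2 of their 3 controls came from females. The hour of day at which mice were injected or killed is not given in the sources used here. In days of 24 h, 36 h leaves a remainder of 12 h and 120 h a remainder of 0 h, so hour of day and time after SE cannot be told apart.

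As background, the circadian clock of mammals is a feedback loop of transcription. CLOCK and BMAL1, the product of Arntl, bind E-boxes and activate the Per and Cry genes, whose proteins repress CLOCK and BMAL1 in turn. The same E-box drive acts on output genes. Dbp, Tef and Hlf encode the PAR bZIP activators, which bind D-boxes, and Nfil3 (E4BP4) encodes a repressor of the same sites. Nr1d1 and Nr1d2 encode Rev-erb alpha and beta, haem-binding nuclear receptors that repress Arntl and other genes through RORE sites. Ciart (Chrono), Bhlhe40 (DEC1) and Bhlhe41 (DEC2) encode repressors that act on CLOCK and BMAL1 or on the E-box itself. Mice that lack Dbp, Tef and Hlf together are known to have spontaneous seizures with low pyridoxal phosphate in brain, and PAR bZIP factors are known to activate the pyridoxal kinase gene Pdxk.

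The promoters of the genes that the results turn on are shown because E-boxes, D-boxes, ROREs and the cAMP response element (CRE) are the sites through which clock and activity signals are known to reach them. RefSeq promoters of GRCm38.p6 were at hand for 8 of the 9 genes (9 promoters, of which 2 belong to Tef, and none for Bhlhe40), and the 250 bases before each start were searched on both strands. Each sequence is written 5′ to 3′ on the strand of the gene, with E-boxes (CACGTG), the E-box variant CACGTT and the CRE (TGACGTCA) in capitals.
Dbp, chr7:45704997-45705246 (plus strand): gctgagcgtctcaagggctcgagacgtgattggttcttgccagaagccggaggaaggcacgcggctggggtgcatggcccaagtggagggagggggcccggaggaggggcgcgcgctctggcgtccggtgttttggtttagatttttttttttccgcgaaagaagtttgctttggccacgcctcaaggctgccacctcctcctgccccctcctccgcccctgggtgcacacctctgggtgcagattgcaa
Hlf, chr11:90390918-90391167 (minus strand): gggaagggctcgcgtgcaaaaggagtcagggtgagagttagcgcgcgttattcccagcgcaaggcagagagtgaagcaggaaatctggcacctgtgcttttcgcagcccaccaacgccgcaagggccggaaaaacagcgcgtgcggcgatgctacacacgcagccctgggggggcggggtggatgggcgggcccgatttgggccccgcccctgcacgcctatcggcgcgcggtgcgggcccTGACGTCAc
Nr1d1, chr11:98775378-98775627 (minus strand): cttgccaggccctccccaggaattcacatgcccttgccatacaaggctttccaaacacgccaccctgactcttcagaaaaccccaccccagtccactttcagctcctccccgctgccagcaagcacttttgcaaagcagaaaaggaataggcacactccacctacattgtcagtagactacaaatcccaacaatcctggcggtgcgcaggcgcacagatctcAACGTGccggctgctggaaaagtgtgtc
Ciart, chr3:95882229-95882478 (minus strand): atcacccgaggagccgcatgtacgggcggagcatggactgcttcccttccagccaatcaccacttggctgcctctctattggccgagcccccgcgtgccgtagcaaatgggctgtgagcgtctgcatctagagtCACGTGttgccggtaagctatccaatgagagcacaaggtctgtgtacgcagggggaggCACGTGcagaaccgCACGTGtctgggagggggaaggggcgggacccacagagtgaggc
Bhlhe41, chr6:145865421-145865670 (minus strand): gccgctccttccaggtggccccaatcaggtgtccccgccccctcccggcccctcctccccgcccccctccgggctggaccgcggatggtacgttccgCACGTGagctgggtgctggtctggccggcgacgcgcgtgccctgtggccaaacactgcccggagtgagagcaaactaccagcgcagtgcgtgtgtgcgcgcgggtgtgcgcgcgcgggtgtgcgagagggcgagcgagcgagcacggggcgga

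Ciart had 3 E-boxes, which began 116, 58 and 44 bases before the start. Bhlhe41 had 1, which began at base -153, and each Tef promoter had 1, at base -127 or -138. An E-box was found in 6.02% of 32851 promoters of this length. Nr1d1 had the variant on its minus strand from base -28 to -23, against 3.85% of promoters with that hexamer. Hlf had the full CRE from base -9 to -2, a sequence in 1.55% of promoters. It includes the CRE core TGACG, found in 17.8% of promoters and also for Nfil3, on the minus strand from base -59 to -55. The RORE core AGGTCA was found for Nfil3 and Nr1d2 and in 14% of promoters. No D-box was found for the 8 genes, either as TTATGTAA (0.819% of promoters) or as TTACGTAA (0.113%). The Dbp window held none of these motifs. The introns of Dbp, which carry known E-boxes, lie outside it. These are matches of letters, not measured sites.

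Levels per kilobase of exon, averaged over the 19 libraries, were 41.0 CPM per kb for Tef, 31.1 for Bhlhe40, 29.9 for Nr1d1, 21.9 for Hlf, 17.3 for Dbp and 16.9 for Nr1d2. Ciart, Bhlhe41 and Nfil3 were lower, at 6.34, 5.84 and 4.80 CPM per kb. The genes differed in how far they moved over the libraries. The highest CPM was 13.8 times the lowest for Ciart, 5.57 times for Nr1d1, 3.82 times for Dbp and 3.55 times for Nfil3. Tef was the steadiest of the 9, with 1.43 times. In whole tissue, fewer cells that express a gene and less RNA per cell cannot be told apart.

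**Figure D1:**
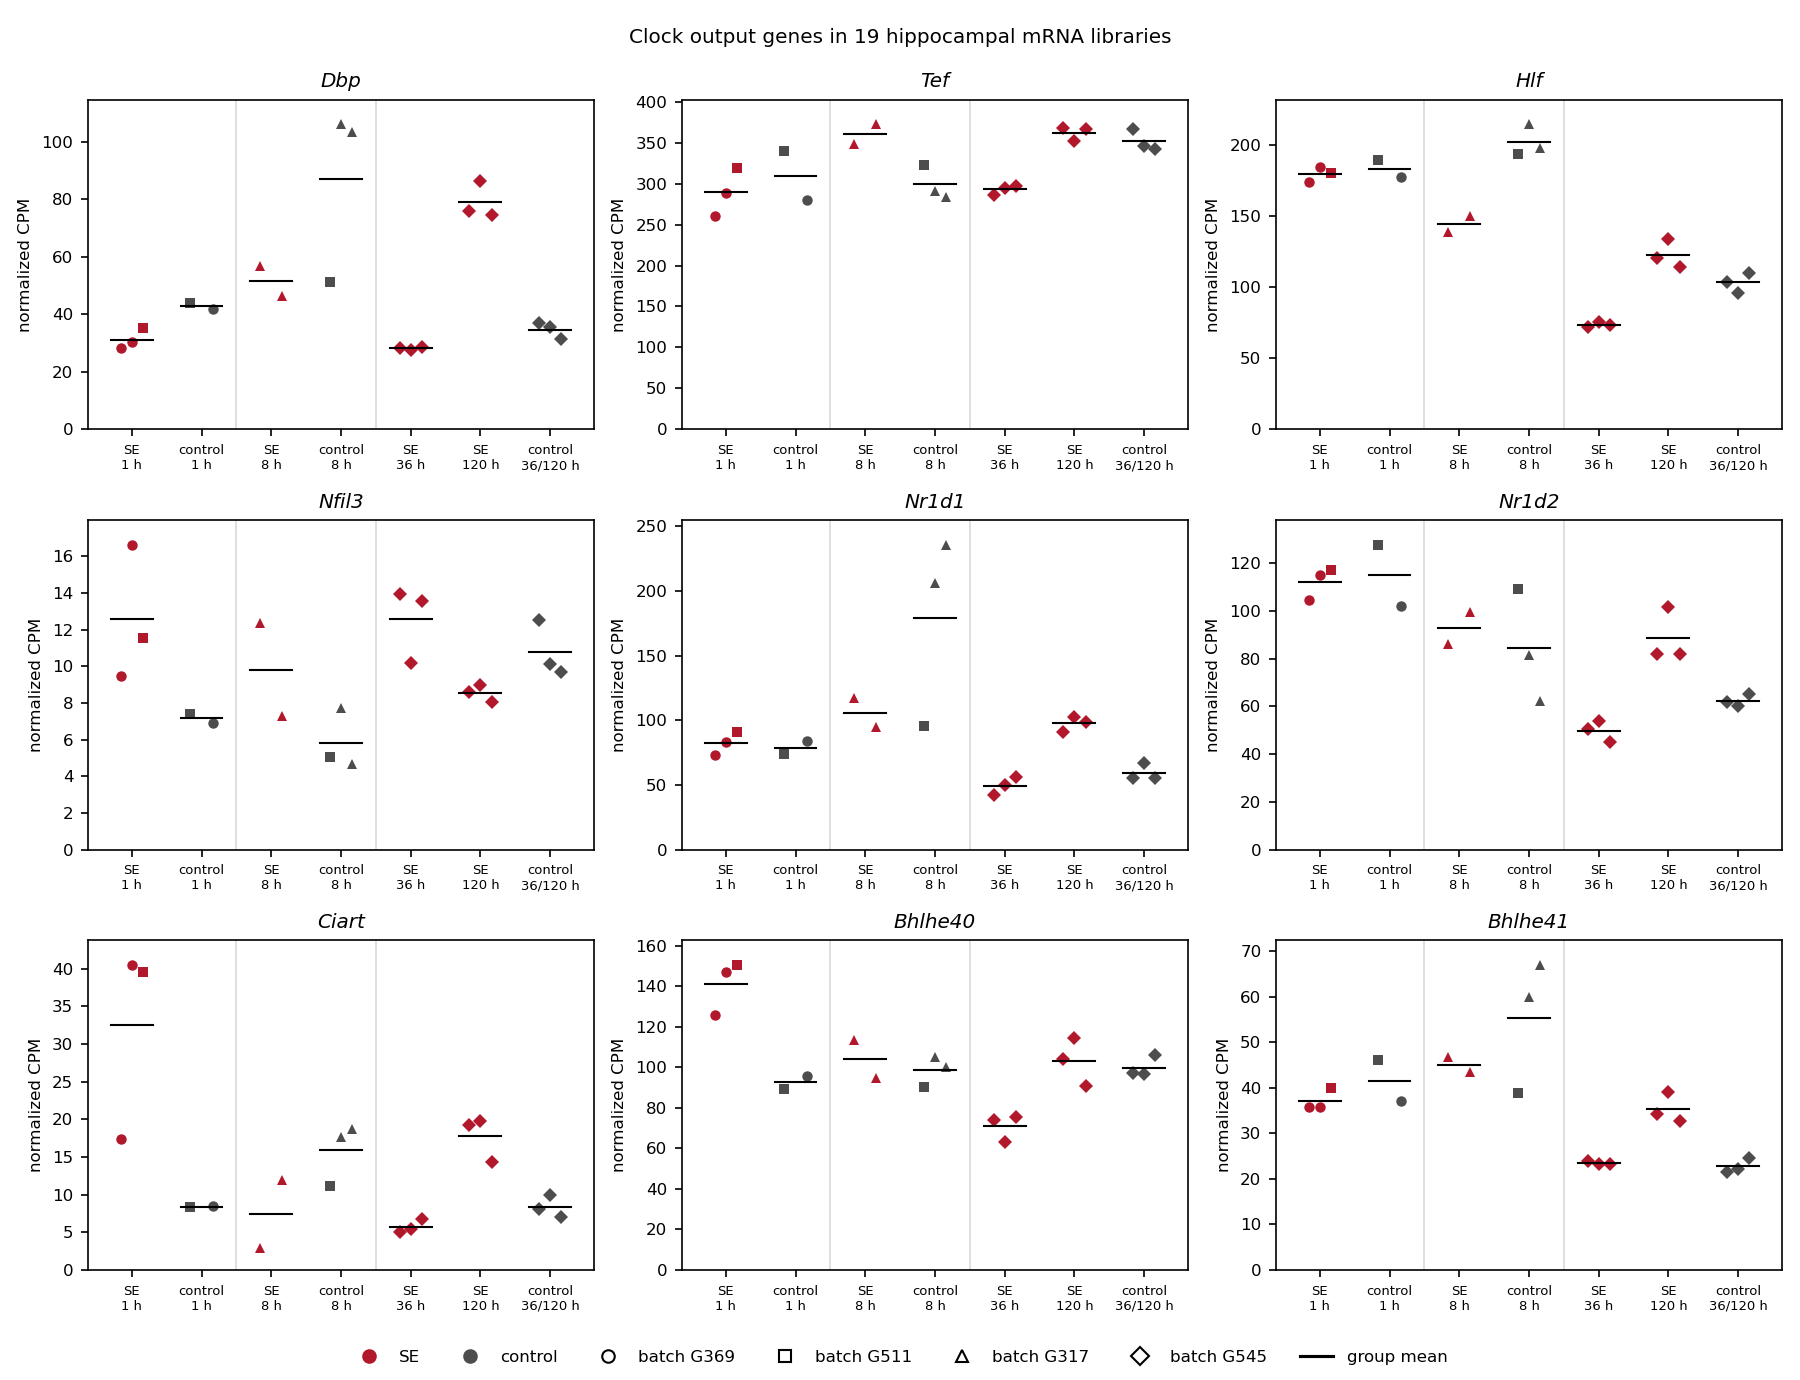
Normalized CPM of the 9 genes (y axes, each from 0) in every library by group (x axes, SE left of its control), with point shape for the batch named in the labels and a bar for the group mean. Dbp lay between 74.5 and 86.4 CPM in the 3 SE libraries of 120 h, above the 3 controls at 31.3 to 36.9 CPM, and Ciart spread from 17.4 to 40.5 CPM after SE at 1 h.

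At 120 h Dbp and Nr1d1 rose after SE. Both passed a threshold of 0.05 on the p-value adjusted over all genes by the Benjamini-Hochberg method in edgeR's quasi-likelihood test (2 of 9 genes, against 0.0563% of 15996 genes tested). At 36 h 6 of the 9 lay below every one of the same controls without passing, and at 1 h Ciart, Bhlhe40 and Nfil3 were above their controls and Dbp below. None of the 9 passed at 1 h, 8 h or 36 h by that test. The count was 0 of 9 at 1 h (0.0799% of 16264 genes), with 4 at an unadjusted p under 0.05 (4.39% of all genes), 2 by the likelihood ratio test (0.424%) and 2 by DESeq2 (0.387%). At 8 h it was 0 of 9 (0% of 15610 genes), with 3 at an unadjusted p under 0.05 (9.47%), 0 by the likelihood ratio test (0.57%) and 0 by DESeq2 (0.609%). At 36 h it was 0 of 9 (0.0252% of 15850 genes), with 6 at an unadjusted p under 0.05 (7.89%), 2 by the likelihood ratio test (0.789%) and 2 by DESeq2 (0.637%). At 120 h 7 of the 9 had an unadjusted p under 0.05 (9.6%). By the likelihood ratio test 5 passed (76 of 15996 genes), and by DESeq2 also 5 (144 of 15996). The median log2 fold change of the 9, with that of all genes tested in brackets, was -0.03 (-0.0023) for the 1 h libraries, -0.30 (-0.0087) for 8 h, -0.27 (0.0065) for 36 h and 0.52 (0.011) for 120 h.

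Separation of the libraries followed the same course. At 1 h all SE libraries lay above all controls for 3 of the 9 genes (9.91% of all genes) and below them for 1 (8.55%). At 8 h this held for 1 gene above (14.6%) and 1 below (13.4%). At 36 h it held for 0 genes above (6%) and 6 below (8.28%), namely Dbp, Tef, Hlf, Nr1d2, Ciart and Bhlhe40. At 120 h it held for 6 genes above (6.33%), namely Dbp, Hlf, Nr1d1, Nr1d2, Ciart and Bhlhe41, and 1 below (9.1%), Nfil3. The shares at 1 h and 8 h lay on few libraries, and the 9 genes were chosen with earlier results of these data known.

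**Figure D2:**
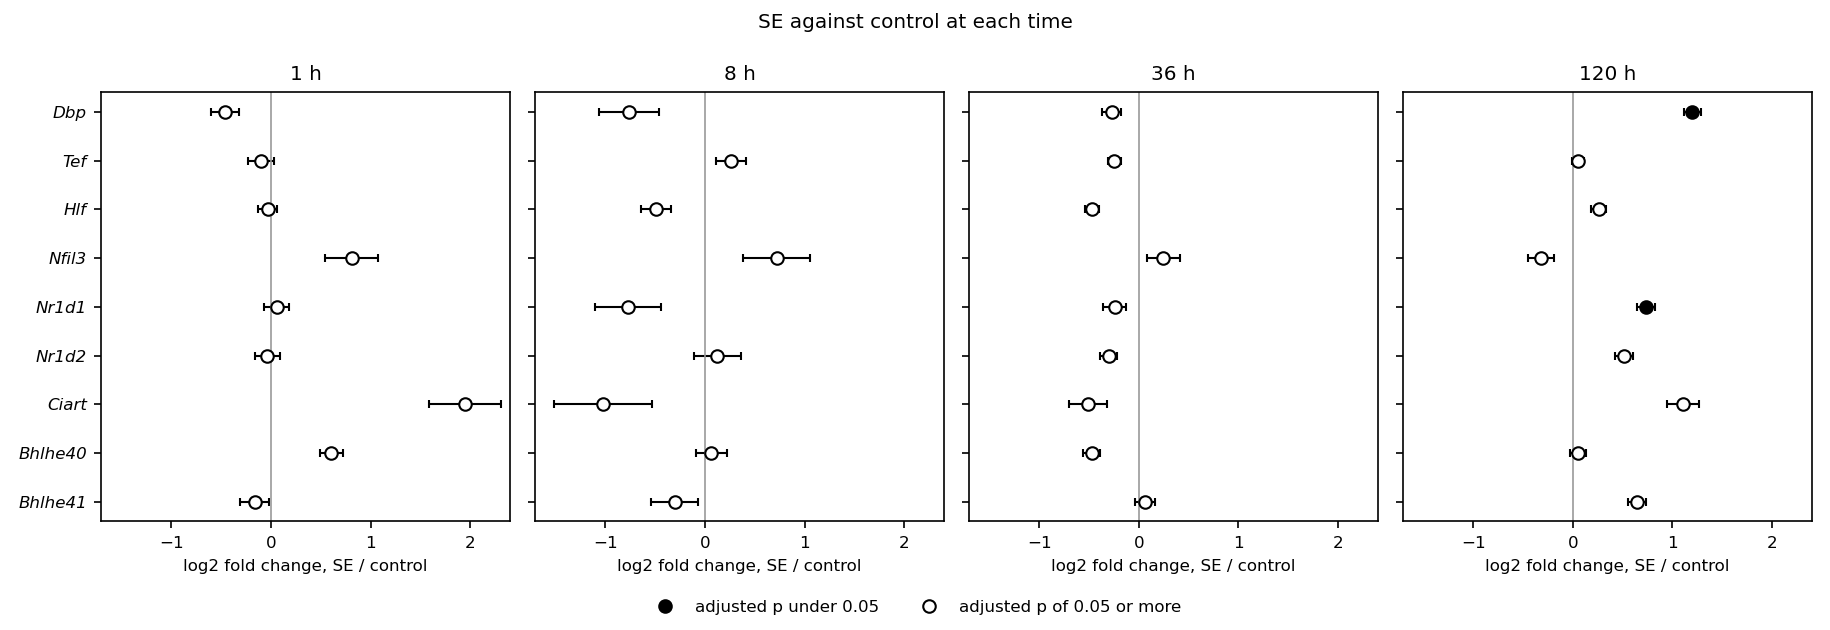
Log2 fold change of SE over control (x axis, bars are standard errors) for the 9 genes (rows) at each of the 4 times (panels), filled where the adjusted p of edgeR's quasi-likelihood test was under 0.05. Filled points stand only for Dbp (1.20) and Nr1d1 (0.74) at 120 h, and Ciart at 1 h has the farthest point from 0 (1.95).

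Among the PAR bZIP activators, Dbp (ENSMUSG00000059824, NCBIM37 chr7:52960458-52965525, plus strand) rose at 120 h. It had 76.1, 86.4 and 74.5 CPM after SE at 120 h, against 36.9, 35.7 and 31.3 CPM in controls. The lowest SE library was over 2 times the highest control. The log2 fold change was 1.20 ± 0.08 (± gives the standard error of a log2 value throughout; adjusted p = 0.00402, quasi-likelihood test of edgeR, n = 3 each), a fold of 2.30, and its p was the smallest of all genes tested at that time. Dbp passed in each of the 6 fits that left out 1 library, with log2 values from 1.13 to 1.25. It also passed with the choroid plexus score or the sex-linked transcripts in the model, but with all 19 libraries in 1 fit its adjusted p was 0.0846. SE replicate 3, with the high choroid plexus markers, had the lowest Dbp of the 3.

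At the other times Dbp was below its controls on average. At 36 h SE libraries had 28.4, 27.8 and 28.5 CPM, against the same controls at 31.3 to 36.9 CPM. The groups stood apart by a small step, -0.27 ± 0.09 on the log2 scale, and the change did not pass (adjusted p = 0.502, edgeR). At 1 h Dbp had 28.3, 30.3 and 35.1 CPM after SE, against 44.1 and 41.8 CPM in controls (log2 fold change -0.46 ± 0.14, adjusted p = 0.976, edgeR). All 3 SE libraries were below both controls, by -0.33 log2 units within batch G511 and by -0.51 within G369. At 8 h Dbp had 57.0 and 46.4 CPM after SE, against 51.3, 106.2 and 103.5 CPM in controls. The groups overlapped only through control replicate 1, the library of another batch (log2 fold change -0.76 ± 0.30, adjusted p = 0.504, edgeR). In order of group mean, Dbp was highest in controls of 8 h (87.0 CPM) and SE at 120 h (79.0 CPM), which overlapped, and lowest in controls of 36 h and 120 h (34.6 CPM), SE at 1 h (31.2 CPM) and SE at 36 h (28.2 CPM), where neighbours overlapped. The libraries of 36 h and 120 h share no batch with those of 1 h and 8 h, so this order cannot separate batch from time or SE.

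Dbp shares 491 exon bases with Sphk2, a sphingosine kinase gene on the opposite strand, and the strand setting of the counting is not given in the sources used here. Sphk2 averaged 30.6 ± 1.73 CPM after SE at 120 h, against 36.7 ± 1.69 CPM in controls (SD, n = 3 each). It lay below its controls where Dbp lay above them (log2 fold change -0.25 ± 0.08, adjusted p = 0.375, edgeR). At 8 h Sphk2, like Dbp, was lower in control replicate 1 (22.5 CPM) than in control replicates 2 and 3 (35.6 and 48.2 CPM). After SE at 8 h Sphk2 had 38.0 and 29.6 CPM. Whether reads of Sphk2 entered the counts of Dbp was not tested.

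Hlf (ENSMUSG00000003949, NCBIM37 chr11:90197849-90252231, minus strand), the second activator, lay below its controls at 8 h and 36 h and above them at 120 h, with no difference from controls past the threshold. At 36 h Hlf had 72.1, 75.2 and 73.7 CPM after SE, against 103.9, 96.2 and 110.1 CPM in controls. The 3 SE libraries agreed closely and lay below every control. The log2 fold change was -0.47 ± 0.07 with an adjusted p of 0.143 by edgeR's quasi-likelihood test, and of 6 fits that left out 1 library it passed only without SE replicate 3, the library with low choroid plexus markers (-0.47, adjusted p = 0.00739, against 0.319 to 0.611 in the others). In that fit 2.9% of all genes passed. By the likelihood ratio test and DESeq2 the adjusted p values were 0.000242 and 0.000379. At 120 h Hlf had 120.4, 134.1 and 114.1 CPM after SE, all above the same controls (log2 fold change 0.26 ± 0.07, adjusted p = 0.352, edgeR). At 8 h it had 139.2 and 150.4 CPM after SE, against 193.5, 214.7 and 198.3 CPM in controls, with no overlap (-0.49 ± 0.15, adjusted p = 0.478, edgeR). At 1 h the groups overlapped (174.4 to 184.6 CPM after SE and 177.5 to 189.4 CPM in controls).

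Tef (ENSMUSG00000022389, NCBIM37 chr15:81632851-81657291, plus strand), the third activator and the most abundant of the 9 per kilobase, stayed within a narrow range. Its lowest and highest libraries were both SE libraries, with 260.1 CPM at 1 h and 372.4 CPM at 8 h. At 36 h it had 286.0, 295.1 and 297.1 CPM after SE, against 367.0, 346.3 and 341.9 CPM in controls. Those groups stood apart, with a log2 fold change of -0.24 ± 0.07 (adjusted p = 0.402, edgeR). The log2 fold change was -0.10 ± 0.13 at 1 h, 0.26 ± 0.15 at 8 h and 0.05 ± 0.06 at 120 h, with adjusted p values from 0.599 to 0.999 (edgeR). Gm17597, a long noncoding gene that shares 193 exon bases with Tef on the opposite strand, is not among the counted genes.

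Nfil3 (ENSMUSG00000056749, NCBIM37 chr13:53062578-53076442, minus strand), which opposes the activators at D-boxes, was the gene with the fewest counts per kilobase, from 48 to 287 counts a library. It had 9.46, 16.6 and 11.6 CPM after SE at 1 h, against 7.40 and 6.92 CPM in controls. All 3 SE libraries were above both controls and spread more widely than they did (log2 fold change 0.81 ± 0.27, adjusted p = 0.976, edgeR). At 120 h the direction was the opposite, with 8.60, 9.001 and 8.08 CPM after SE, against 12.5, 10.1 and 9.70 CPM in controls. The groups did not overlap (log2 fold change -0.32 ± 0.13, adjusted p = 0.486, edgeR). At 8 h and 36 h the groups overlapped, with log2 fold changes of 0.72 ± 0.34 and 0.24 ± 0.17. At each of the 4 times the log2 fold change of Nfil3 had the sign opposite to that of Dbp, a difference in sign that was not tested.

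Of the Rev-erb genes, Nr1d1 (ENSMUSG00000020889, NCBIM37 chr11:98629246-98636647, minus strand) rose at 120 h. It had 91.3, 102.9 and 99.0 CPM after SE, against 55.2, 67.2 and 55.3 CPM in controls. Every SE library was above every control. The log2 fold change was 0.74 ± 0.09, a fold of 1.67 (adjusted p = 0.0461, quasi-likelihood test of edgeR, n = 3 each). The call was close to the threshold: of 6 fits that left out 1 library it passed only without control replicate 2 (adjusted p = 0.036), and without the others the adjusted p reached 0.302. With the choroid plexus score or the sex-linked transcripts as a covariate the adjusted p was 0.0992 or 0.11, at log2 values of 0.71 and 0.77, and with all 19 libraries in 1 fit it was 1 at a log2 value of 0.72. Thra, a thyroid hormone receptor gene that shares 263 exon bases with Nr1d1 on the opposite strand, had 916 ± 112 CPM after SE and 940.5 ± 109 CPM in controls (SD, n = 3 each). At 8 h Thra, like Nr1d1, was lower in control replicate 1 (594 CPM) than in control replicates 2 and 3 (763 and 946 CPM). After SE at 8 h Thra had 783 and 684 CPM.

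Nr1d1 varied most at 8 h, where it had 117.0 and 94.8 CPM after SE, against 95.8, 206.1 and 235.9 CPM in controls. Control replicates 2 and 3 stood far above the SE libraries of the same batch and control replicate 1 did not (log2 fold change -0.77 ± 0.33, adjusted p = 0.523, edgeR). At 36 h the groups overlapped at 42.4, 49.8 and 55.9 CPM after SE and 55.2 to 67.2 CPM in controls (-0.24 ± 0.12, adjusted p = 0.666, edgeR). At 1 h they also overlapped, at 73.1 to 90.7 CPM after SE and 73.6 to 84.2 CPM in controls.

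Nr1d2 (ENSMUSG00000021775, NCBIM37 chr14:19036568-19071641, minus strand), the paralog, had 81.9, 101.5 and 81.9 CPM after SE at 120 h, against 61.8, 60.0 and 65.2 CPM in controls. The groups stood apart (log2 fold change 0.52 ± 0.09, adjusted p = 0.144, edgeR), and the likelihood ratio test and DESeq2 gave adjusted p values of 0.000447 and 0.000155. At 36 h SE libraries had 50.5, 54.1 and 45.0 CPM, all below the same controls (-0.30 ± 0.09, adjusted p = 0.417, edgeR). At 8 h Nr1d2 did not share the low values of Nr1d1: it had 86.3 and 99.4 CPM after SE, against 109.2, 81.6 and 62.3 CPM in controls (0.13 ± 0.23, adjusted p = 0.867, edgeR). At 1 h it had 104.7 to 117.2 CPM after SE and 101.9 to 127.8 CPM in controls.

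Ciart (ENSMUSG00000038550, named Gm129 in the annotation, NCBIM37 chr3:95682426-95686174, minus strand), a repressor of CLOCK and BMAL1, showed the widest swings of the 9. It had 17.4, 40.5 and 39.6 CPM after SE at 1 h, against 8.34 and 8.48 CPM in controls. The lowest SE library was over 2 times both controls. The log2 fold change was 1.95 ± 0.36, a fold of 3.86, with an unadjusted p of 0.000542 and an adjusted p of 0.232 (quasi-likelihood test of edgeR, 3 SE and 2 control libraries). Of 5 fits that left out 1 library it passed only without SE replicate 1, the lowest SE library (log2 2.25, adjusted p = 0.00257, against 0.2 to 1 in the others), and it passed by the likelihood ratio test and DESeq2 (adjusted p = 0.000137 and 7.03e-06). The difference was 2.24 log2 units within batch G511 and 1.64 within G369.

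At 8 h Ciart had 2.94 and 12.0 CPM after SE, against 11.2, 17.7 and 18.7 CPM in controls. SE replicate 1 had only 25 counts, the lowest of any library, and the groups overlapped (log2 fold change -1.02 ± 0.49, adjusted p = 0.558, edgeR). At 36 h it had 5.07, 5.47 and 6.75 CPM after SE, against 8.10, 9.91 and 7.05 CPM in controls, a small gap (-0.51 ± 0.19, adjusted p = 0.551, edgeR). At 120 h the order was the opposite: 19.3, 19.7 and 14.3 CPM after SE, above all 3 controls (1.11 ± 0.16, adjusted p = 0.0868, edgeR). SE replicate 3 of 120 h, the library with high choroid plexus markers, was the lowest of the 3.

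Bhlhe40 (ENSMUSG00000030103, NCBIM37 chr6:108610623-108616919, plus strand), an E-box repressor that is also known as an early response gene, had 126.0, 146.9 and 150.5 CPM after SE at 1 h, against 89.4 and 95.9 CPM in controls. All 3 SE libraries lay above both controls, by 0.75 log2 units within batch G511 and by 0.50 within G369, each with 1 control. The log2 fold change was 0.61 ± 0.12, a fold of 1.52, with an adjusted p of 0.28 by edgeR's quasi-likelihood test, 0.011 by the likelihood ratio test and 0.00174 by DESeq2. At 36 h it lay on the other side, with 73.9, 63.1 and 75.5 CPM after SE, against 97.1, 96.5 and 105.9 CPM in controls. This gap (-0.47 ± 0.09) had an adjusted p of 0.258 by the quasi-likelihood test, and of 6 fits that left out 1 library it passed only without SE replicate 3 (-0.52, adjusted p = 0.00802, against 0.429 to 0.861 in the others). At 8 h and 120 h the groups overlapped, and both log2 fold changes were 0.06. The noncoding gene 0610040F04Rik, which shares 118 exon bases with Bhlhe40 on the opposite strand, had 26 counts or fewer in each library.

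Bhlhe41 (ENSMUSG00000030256, NCBIM37 chr6:145806763-145814078, minus strand), its paralog, did not share this pattern at 1 h or 36 h, where the groups overlapped (log2 fold changes of -0.16 ± 0.15 and 0.06 ± 0.10). The difference between the paralogs was not tested. At 120 h Bhlhe41 had 34.1, 39.2 and 32.7 CPM after SE, against 21.6, 22.1 and 24.7 CPM in controls. The groups stood well apart (log2 fold change 0.64 ± 0.09, adjusted p = 0.0868, edgeR), and the likelihood ratio test and DESeq2 gave adjusted p values of 0.000111 and 2.95e-05. At 8 h it had 46.7 and 43.5 CPM after SE, against 38.8, 59.8 and 66.97 CPM in controls (-0.30 ± 0.23, adjusted p = 0.683, edgeR).

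The comparison at 8 h turned on control replicate 1. For Dbp, Nr1d1 and Bhlhe41 it lay near the SE libraries, and the 2 controls of batch G317 lay above them. Without it, 4 of the 9 genes passed in edgeR's quasi-likelihood test, as they did with batch as a covariate, which draws on the same contrast. Nr1d1 then had -1.08 ± 0.13 (adjusted p = 0.00072), Dbp -1.04 ± 0.13 (adjusted p = 0.000817), Hlf -0.52 ± 0.11 (adjusted p = 0.0118) and Bhlhe41 -0.51 ± 0.13 (adjusted p = 0.0248) on the log2 scale. In that fit 2065 of 15369 genes passed in either direction (13.4%, and 13.5% with batch as a covariate), against 0 with all 5 libraries. The calls of the 4 genes thus came only in fits in which many genes were called. Control replicate 1 also had the lowest choroid plexus markers of the 5 libraries, 493 CPM against 1401 to 4084 CPM, and the highest summed thalamus markers, 160 CPM against 63.0 to 90.1 CPM, and astrocyte markers, 6257 CPM against 4242 to 5215 CPM. All 6 thalamus markers were lower after SE on average at 8 h, 4 of them without overlap. The part of these differences, of the batch of control replicate 1 or of its hour of day was not tested.

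**Figure D3:**
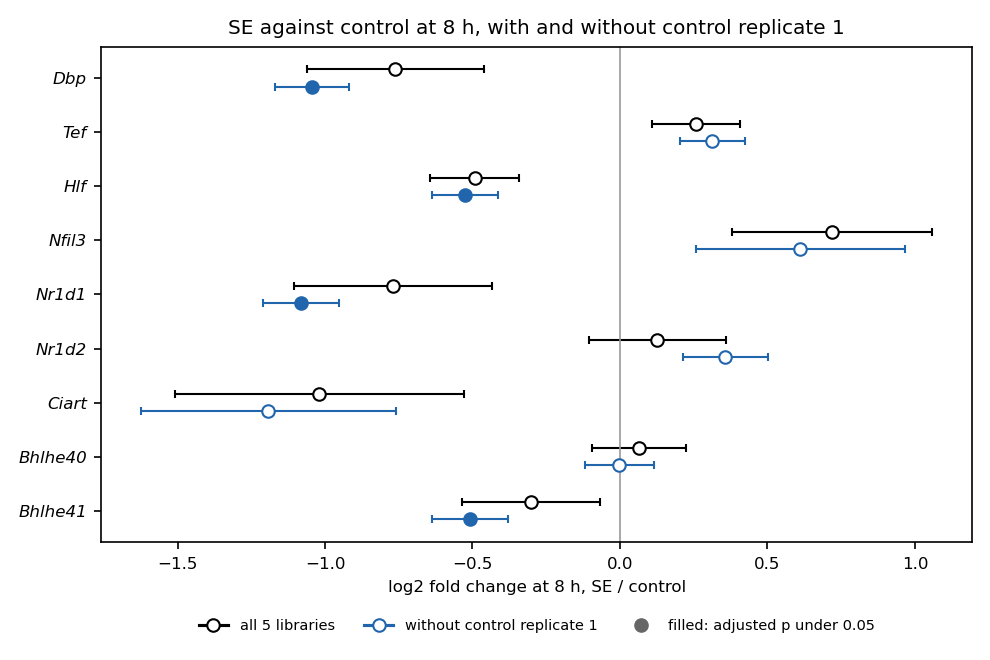
Log2 fold change of SE over control at 8 h (x axis, bars are standard errors) for the 9 genes (rows), from all 5 libraries and without control replicate 1, the library of batch G511, filled where the adjusted p of edgeR's quasi-likelihood test was under 0.05. No point is filled with all libraries, and Dbp, Hlf, Nr1d1 and Bhlhe41 are filled without control replicate 1.

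Whether the SE effect differed between neighbouring times was tested in 1 fit of the 19 libraries. From 1 h to 8 h the effect on Ciart fell by 2.93 ± 0.57 on the log2 scale (adjusted p = 0.0445, edgeR's quasi-likelihood test). Ciart was the only 1 of the 9 genes to pass (0.149% of 17415 genes passed), and in 6 of the 10 fits that left out 1 library it did not, with adjusted p values up to 0.304. With batch in the model 6 of the 9 passed, and 7.49% of all genes. From 8 h to 36 h, 0 of 9 passed (0.144% of genes), with 2 at an unadjusted p under 0.05 (14.1%), 0 by the likelihood ratio test (1.14%) and 1, Tef, by DESeq2 (1.76%). The smallest p of these was that of Tef (-0.53 ± 0.14, adjusted p = 0.125, edgeR). Without control replicate 1 of 8 h 5 of the 9 passed, and 11.4% of all genes.

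From 36 h to 120 h the shared controls cancel, and the contrast sets the 3 SE libraries of 120 h against the 3 SE libraries of 36 h. Of the 9 genes, 3 passed (0.0804% of all genes). Hlf rose by 0.74 ± 0.09 (adjusted p = 0.00128), Dbp by 1.48 ± 0.19 (adjusted p = 0.00146) and Nr1d2 by 0.83 ± 0.15 (adjusted p = 0.0465) on the log2 scale by edgeR's quasi-likelihood test. The p of Hlf was the smallest of all genes in that test. Every SE library of 120 h lay above every SE library of 36 h for 8 of the 9 genes (7.38% of all genes) and below for 1, Nfil3 (5.95%). Ciart, at 1.63 ± 0.36, and Nr1d1, at 0.99 ± 0.22, had an adjusted p of 0.167 each, and 6 genes passed by the likelihood ratio test (0.241% of all genes) and by DESeq2 (0.247%). The median log2 difference was 0.74 over the 9 genes and 0.0035 over all genes.

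Hlf and Dbp passed in each of the 6 fits that left out 1 SE library and with the sex-linked transcripts as a covariate, and Nr1d2 passed in none of these (adjusted p from 0.056 to 0.405). With SE replicate 3 of 36 h, the library with low choroid plexus markers, as the lone SE library of that time, the log2 differences were 0.74 for Hlf, 1.47 for Dbp and 0.98 for Nr1d2 with adjusted p values of 0.159, 0.17 and 0.273. That library had 73.7 CPM of Hlf, against 72.1 and 75.2 CPM in replicates 1 and 2, and 28.5 CPM of Dbp, against 28.4 and 27.8 CPM. For Nr1d2 it was the lowest of the 3, with 45.0 CPM against 50.5 and 54.1 CPM. Likewise SE replicate 3 of 120 h, with high choroid plexus markers, had 74.5 CPM of Dbp against 76.1 and 86.4 CPM.

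Some markers of other cell types also differed between these SE groups. Of 6 astrocyte markers 5 had an unadjusted p under 0.05, against 733 of 17415 genes, and 1 passed. This was Gfap, an intermediate filament gene of reactive astrocytes, which was chosen after its values were seen. It fell by 1.03 ± 0.16 (adjusted p = 0.00787, edgeR). The list did not move in 1 direction. Of the 6 markers, 4 were lower at 120 h without overlap (5.95% of all genes) and 2 higher without overlap (7.38%). The median log2 difference of the 6 was -0.33. Summed levels were 3816 to 4132 CPM after SE at 120 h and 4038 to 4565 CPM after SE at 36 h. All 6 oligodendrocyte markers were higher at 120 h on average (median 0.41), with 0 past the threshold and 2 at an unadjusted p under 0.05. Their sums overlapped, with 7419 to 11490 CPM after SE at 120 h and 4791 to 8858 CPM after SE at 36 h. Of the other lists, 2 of 6 endothelial and 1 of 8 neuron markers had an unadjusted p under 0.05. For microglia, thalamus and choroid plexus markers the number was 0. SE replicate 3 of 36 h was the lowest of these libraries in oligodendrocyte markers, at 4791 CPM, and in endothelial markers, at 73.8 CPM against 93.2 to 128 CPM. Against controls, the only markers to pass were Gfap at 36 h (1.37 ± 0.15, adjusted p = 0.0246, edgeR's quasi-likelihood test) and Cldn5, an endothelial marker, at 120 h (-0.87 ± 0.11, adjusted p = 0.0461). At 36 h 4 of 6 astrocyte, 4 of 8 neuron and 14 of 14 choroid plexus markers had an unadjusted p under 0.05 (7.89% of all genes). At 120 h the numbers were 1 of 6, 3 of 8 and 9 of 11 (9.6%). The part of these cell types in the changes of the clock outputs was not tested.

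**Figure D4:**
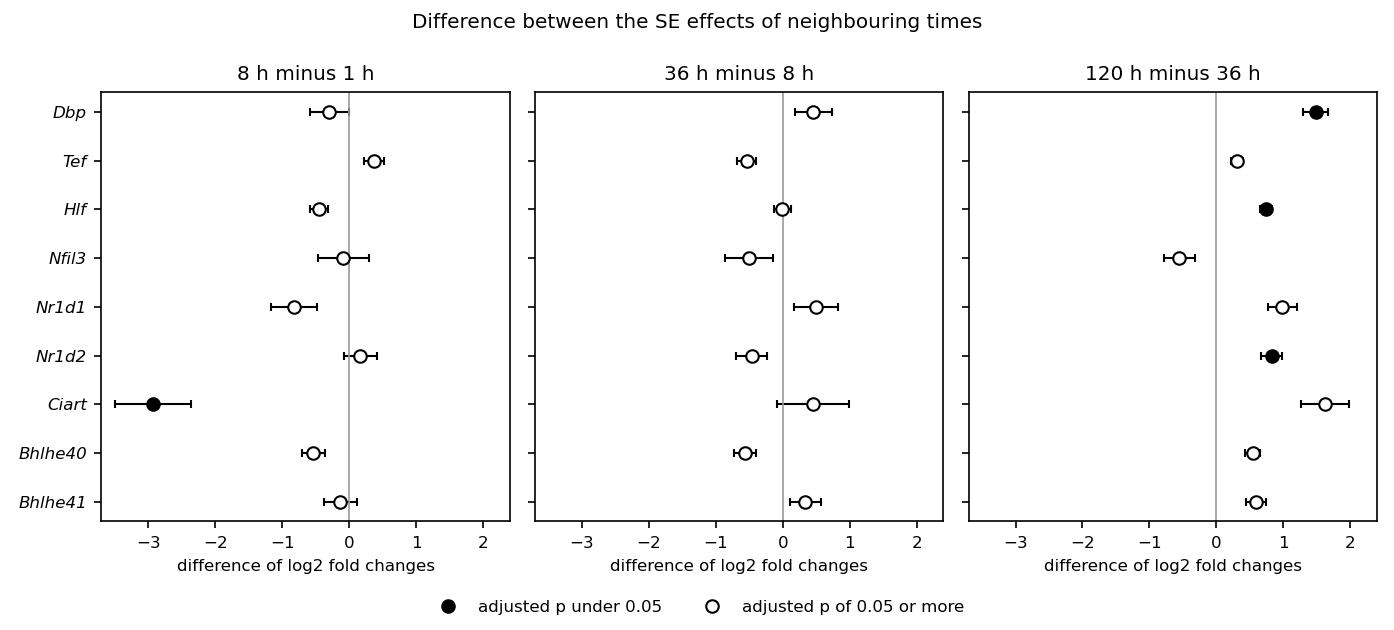
Difference between the log2 fold changes of SE at neighbouring times (x axis, bars are standard errors) for the 9 genes (rows), from 1 fit of 19 libraries, filled where the adjusted p of edgeR's quasi-likelihood test was under 0.05. Ciart is filled for 8 h minus 1 h (-2.93), and Hlf (0.74), Dbp (1.48) and Nr1d2 (0.83) for 120 h minus 36 h.

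Of 17 core clock genes 0 passed at any of the 4 times in edgeR's quasi-likelihood test. In order of time, 7, 10, 7 and 8 of them were higher after SE on average and the others lower, 1, 4, 2 and 4 had an unadjusted p under 0.05 (4.39%, 9.47%, 7.89% and 9.6% of all genes), and their median log2 fold changes were -0.04, 0.09, -0.02 and -0.0067. At 1 h Per1, which is induced by light and activity as well as by the clock, had 152 ± 37.1 CPM after SE and 78.5 ± 1.61 CPM in controls (SD, n = 3 SE and 2 controls). Its groups did not overlap (log2 fold change 0.96 ± 0.20, adjusted p = 0.356, edgeR), and Rora, an activator at RORE sites, had 0.19 ± 0.14. At 8 h Rorb, a relative of Rora, had -0.84 ± 0.20 and Cry1 0.63 ± 0.22. At 36 h Per2 had -0.53 ± 0.11 and Per3 -0.37 ± 0.09, with all SE libraries below all controls for both.

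Per3, a Period gene that CLOCK and BMAL1 drive, also differed between the late SE groups. It averaged 61.7 ± 3.51 CPM after SE at 120 h and 35.9 ± 2.25 CPM after SE at 36 h, against 47.1 ± 3.69 CPM in the shared controls (SD, n = 3 each). The difference between the SE groups was 0.78 ± 0.10 on the log2 scale (adjusted p = 0.00146, edgeR's quasi-likelihood test), while against controls at 120 h it was 0.40 ± 0.08 (adjusted p = 0.18), and Per1 had 0.36 ± 0.10 (adjusted p = 0.344). From 8 h to 36 h the effect on Per3 fell by 0.85 ± 0.15 (adjusted p = 0.0336). Arntl, which Rev-erb proteins repress, was named after its values were seen: it had 27.5 ± 1.35 CPM after SE at 120 h and 36.4 ± 5.22 CPM in controls (-0.39 ± 0.11, adjusted p = 0.345, edgeR).

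Few known targets of the output genes passed. Of 6 targets of PAR bZIP factors 3 were expressed enough to be tested, and 0 passed at any time in edgeR's quasi-likelihood test, with 0 at an unadjusted p under 0.05. In order of time, 3, 1, 3 and 3 of the 3 were higher after SE on average. Pdxk had 164 ± 2.16 CPM after SE at 1 h and 146 ± 9.21 CPM in controls (SD, n = 3 SE and 2 controls; log2 fold change 0.17 ± 0.10), and 146 ± 11.4 CPM after SE at 120 h, against 146 ± 4.64 CPM in controls (0.02 ± 0.06). Por, a target in mouse liver, had log2 fold changes from -0.16 to 0.21 over the 4 times and Alas1, another, from -0.04 to 0.11. Of 7 genes of Rev-erb corepressors and targets 0 passed at any of the 4 times in edgeR's quasi-likelihood test. At an unadjusted p under 0.05 there was 1 at 8 h (9.47% of all genes), 1 at 120 h (9.6%) and 0 otherwise. In order of time, 4, 1, 4 and 3 of the 7 were higher after SE on average. Fabp7, a Rev-erb target in mouse brain, had -0.65 ± 0.24 at 8 h, 0.23 ± 0.19 at 36 h and -0.95 ± 0.21 at 120 h (adjusted p = 0.273). Between the late SE groups Fabp7 fell by 1.17 ± 0.20 (adjusted p = 0.0254, edgeR), with 25.2 ± 5.15 CPM after SE at 120 h, 56.8 ± 7.15 CPM after SE at 36 h and 49.3 ± 14.0 CPM in the shared controls (SD, n = 3 each). The corepressor subunits had log2 fold changes of 0.17 ± 0.14 for Tbl1xr1 at 1 h, -0.64 ± 0.30 and 0.18 ± 0.09 for Gps2 at 8 h and 36 h, and 0.15 ± 0.07 for Tbl1x at 120 h.

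Genes of neuronal activity and of glucocorticoids, both known inputs to clock genes, were set beside the outputs. Of 10 immediate early genes all 10 were higher after SE at 1 h and 5 passed in edgeR's quasi-likelihood test: Dusp1 (2.83 ± 0.12), Atf3 (3.72 ± 0.32), Maff (3.76 ± 0.39), Fos (5.20 ± 0.58) and Ier2 (3.27 ± 0.39), on the log2 scale. Later 0 passed, with 4 of 9 tested at an unadjusted p under 0.05 at 8 h (9.47% of all genes), 3 of 9 at 36 h (7.89%) and 0 of 10 at 120 h (9.6%). On average 8 of 9, 0 of 9 and 9 of 10 were higher after SE at these times. Fosb and Fos had 1.82 ± 0.28 and 2.15 ± 0.35 at 8 h, Arc and Nr4a1 -1.01 ± 0.29 and -0.62 ± 0.24 at 36 h, and Junb and Ier2 0.33 ± 0.19 and 0.51 ± 0.32 at 120 h. Of 10 genes induced by glucocorticoids 8, 6, 4 and 8 were higher on average, in order of time. At the first 3 times 0 passed, with 2, 1 and 4 at an unadjusted p under 0.05 (4.39%, 9.47% and 7.89% of all genes). At 1 h Errfi1 and Sgk1 had 1.47 ± 0.27 and 0.88 ± 0.22, at 8 h Fkbp5 and Mt1 0.86 ± 0.25 and -0.51 ± 0.36, and at 36 h Errfi1 and Zbtb16 -0.38 ± 0.10 and -0.41 ± 0.11. At 120 h 7 of the 10 had an unadjusted p under 0.05 (9.6% of all genes). For 6 of them every SE library lay above every control (6.33%). At that time 1 of the 10 passed (0.0563%), Tsc22d3, which rose by 0.55 ± 0.06 (adjusted p = 0.0349, edgeR). It had 92.0 ± 4.34 CPM after SE, against 63.3 ± 2.13 CPM in controls (SD, n = 3 each). Mt2 had 0.53 ± 0.09 (adjusted p = 0.163, edgeR). The part of activity or of glucocorticoids in the changes of the clock outputs was not tested.

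The genes whose log2 CPM was most like that of Dbp over the 19 libraries, of 14872 outside the 9, were Dlx5 (Pearson r = 0.80), Rtbdn (0.80), Rbm3 (0.79), 6330409D20Rik (0.78) and Fam59b (0.78). For Nr1d1 they were Scrt2 (0.90), Mt1 (0.86), Shh (0.86), Supt7l (0.86) and Scrt1 (0.86). None of these was also among the 5 nearest of the other gene. Among the 9 themselves, r ran from -0.60 between Dbp and Nfil3 to 0.90 between Nr1d1 and Bhlhe41. It was 0.86 between Dbp and Nr1d1 and 0.71 between Dbp and Bhlhe41. Within families it was 0.45 for Dbp and Hlf, 0.27 for Dbp and Tef and -0.17 for Tef and Hlf. The Rev-erb genes had 0.34, and Bhlhe40 and Bhlhe41 had 0.41. The libraries share batch and time within groups, so these values describe likeness over groups as well as over mice, and no test was made.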

How the data were processed

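Per the labels and the paper's methods, the authors made stranded polyA libraries, demultiplexed the reads with bcl2fastq, trimmed them with BBDuk, aligned them to NCBIM37 (mm9) with HISAT2 2.1.0 and deposited HTSeq read counts per Ensembl gene, not normalized. The strand setting of HTSeq is not given in the sources used here. The small RNA table was not used.

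Positions and exon lengths came from GENCODE M1 on NCBIM37, an annotation that may differ from the release used for counting. Symbols were found for 33068 of 43629 genes, and all 103 genes of the lists were found. Groups came from sample labels. Each time had its own fit of SE against control libraries by edgeR 4.0.16 in R 4.3.3: filterByExpr, TMM normalization, quasi-likelihood test, and Benjamini-Hochberg adjustment over all genes tested, with a threshold of 0.05. Differences between times were contrasts in 1 fit of 19 libraries and 7 groups. The standard error of a log2 fold change was derived from its F statistic. Printed CPM values came from a single TMM normalization of the 19 libraries (log2 CPM with a prior count of 1). The labels do not tie each replicate to an animal of its own, and p-values then measure only the spread between these samples. Replicates of a group differed by more than sampling noise (chi-square per degree of freedom of at least 7.42).

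Alternatives were the likelihood ratio test (the study's test), DESeq2 1.42.0, RLE normalization, no filter, all libraries in 1 fit, a replicate block, choroid plexus score or batch as a covariate, and each library left out. Added after seeing the data were SE replicate 3 as the lone SE library of 36 h and sex, read from Xist and Ddx3y, as a covariate. The 9 genes, the lists and the markers were chosen with earlier results of these data known. All 9 are named at each time. Of each other list the genes past the threshold or, where fewer than 2 passed, the 2 with the smallest p are named at each time, together with the 5 genes nearest to Dbp and to Nr1d1 with a mean of at least 1 CPM. The value of 1 list gene is not reported here.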

Additional observations from a re-analysis of the deposited data

Results flagged for a closer look

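The SE effect differed between times for 4 results. The effect on Ciart was lower at 8 h than at 1 h, with a log2 difference of -2.93 ± 0.57 (adjusted p = 0.0445, edgeR's quasi-likelihood test), with 32.5 ± 13.1 CPM after SE and 8.41 ± 0.0977 CPM in controls at 1 h and 7.46 ± 6.39 CPM after SE and 15.9 ± 4.07 CPM in controls at 8 h (means ± SD). The effects at 120 h were higher than those at 36 h for Hlf by 0.74 ± 0.09 (adjusted p = 0.00128), for Dbp by 1.48 ± 0.19 (adjusted p = 0.00146) and for Nr1d2 by 0.83 ± 0.15 (adjusted p = 0.0465), each in 3 of 3 SE libraries of 120 h against all 3 of 36 h. The hour of day of collection is not given in the sources used here, and it cannot be told apart from time after SE in these results.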

How the results depend on the processing

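Of the values of the 9 genes under alternatives other than leaving out 1 library, 404 kept their direction and their side of the threshold, 51 newly passed, 12 no longer passed and 10 changed sign. The number of the 9 that passed at 1 h was 0, and 2 by the likelihood ratio test or DESeq2. It was also 2 with no filter (328 of 24265 genes passed) or in 1 fit of all libraries (55 of 17415). At 8 h it was 0, and 3 with no filter (343 of 24356 genes passed). It was 1 in 1 fit of all libraries (423 of 17415) and 4 with batch as a covariate (13.5%). At 36 h it was 0, and 2 by the likelihood ratio test or DESeq2. It was 2 with no filter (141 of 24709 genes passed) and 1 in 1 fit of all libraries (10 of 17415). At 120 h it was 2, and 5 by the likelihood ratio test (76 of 15996 genes passed), DESeq2 (144 of 15996) or no filter (52 of 24957). It was 1 with the choroid plexus score (2 of 15996) or sex-linked transcripts (1 of 15996) as a covariate. In 1 fit of all libraries it was 0. For 8 h minus 1 h it was 1, and 2 by DESeq2 (236 of 17415 genes passed) or no filter (480 of 27279) and 6 with batch (7.49%). For 36 h minus 8 h it was 0, and 1 by DESeq2. For 120 h minus 36 h it was 3, and 6 by the likelihood ratio test or DESeq2, 7 with no filter, 2 with RLE normalization (Nr1d2 had an adjusted p of 0.0507) or sex-linked transcripts and 0 with SE replicate 3 as the lone SE library of 36 h. Over all genes, 155 of 27279 passed for 120 h minus 36 h with no filter, 13 of 17415 with RLE normalization and 12 of 17415 with sex-linked transcripts. The causes were not tested.

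With 1 library left out the number ran from 0 to 1 at 1 h, 0 to 4 at 8 h, 0 to 2 at 36 h, 1 to 2 at 120 h, 0 to 4 for 8 h minus 1 h, 0 to 5 for 36 h minus 8 h, and was 2 throughout for 120 h minus 36 h. The 4 for 8 h minus 1 h came without control replicate 1 of 8 h, where 1183 of 17388 genes passed. The 1 at 1 h came without SE replicate 1, where 33 of 15970 genes passed. Log2 values that changed sign ran, at 1 h, from -0.23 to 0.043 for Tef, -0.079 to 0.014 for Hlf, -0.039 to 0.16 for Nr1d1 and -0.19 to 0.13 for Nr1d2, at 8 h from -0.060 to 0.18 for Bhlhe40 and -0.057 to 0.36 for Nr1d2, and at 120 h from -0.027 to 0.13 for Bhlhe40. For 8 h minus 1 h they ran from -0.013 to 0.40 for Nr1d2, -0.33 to 0.032 for Bhlhe41 and -0.48 to 0.27 for Nfil3, and for 36 h minus 8 h from -0.068 to 0.053 for Hlf and -0.14 to 1.90 for Ciart.

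Deviations from the group means had r from -0.24 to 0.21 for libraries with the same replicate number and from -0.27 to 0.25 for other pairs. In groups of 2 or 3 libraries such deviations are tied to each other, so the check could hardly show pairing. The numbers were not taken as pairs. With a replicate block 1 of the 9 passed at 1 h (Ciart, with 42 of 16264 genes passing) and 1 at 120 h (Dbp, with 1 of 15996). For 8 h minus 1 h 0 passed, and for 120 h minus 36 h 2 (3 of 17415 genes). Log2 values then changed sign for Nr1d1 at 1 h (-0.016), Nr1d2 at 8 h (-0.042), Dbp and Bhlhe41 for 8 h minus 1 h (0.017 and 0.10) and Hlf for 36 h minus 8 h (0.0048). The block changed no other call of the 9. The other changes of sign were Nr1d2 at 1 h with batch (0.0066), Bhlhe40 at 8 h with the choroid plexus score (-0.028), and Hlf for 36 h minus 8 h by DESeq2 (0.019), RLE (0.022) and no filter (0.010). Few libraries and, for Ciart and Nfil3, low counts limited the precision.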
